A study of Homo sapiens with 6 samples.

Results

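The SOX genes outside the pluripotency core are 10 members of the SOX transcription factor family, namely SOX1, SOX3, SOX4, SOX8, SOX9, SOX10, SOX11, SOX12, SOX15 and SOX21. They were taken by gene symbol from a count table of 53712 genes, and all 10 were found there. The cells were H9, an embryonic stem cell line of human origin grown in PXGL, a medium for naive pluripotency. In the ASO-L1 group the cells had received an antisense oligonucleotide against LINE-1, the autonomous retrotransposon family of the human genome, and in the SO-L1 group the corresponding sense oligonucleotide, each at 25 nM by lipofection. Every culture was also given 0.7 uM trans-ISRIB (a blocker of the integrated stress response), 5 uM emricasan (a caspase inhibitor) and 10 uM of the ROCK inhibitor Y-27632, which were removed after 24 hours. Unsorted cells were collected at 48 hours, and poly(A) RNA was sequenced in 3 libraries per group. Nothing in the labels says that the 3 were separate cultures, so p-values measure the spread between these libraries, which may be technical. In bulk RNA, fewer cells of a type and less RNA per cell cannot be told apart.

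SOX proteins bind DNA through an HMG box, a domain that bends the double helix at short AT-rich sites, and are sorted into lettered groups by the sequence of this box. Group B1 (SOX1 and SOX3, with SOX2) keeps neural progenitors undifferentiated, whereas SOX21 of group B2 is a repressor that counteracts them. Group C (SOX4, SOX11 and SOX12) is active in progenitors and maturing neurons. Group E (SOX8, SOX9 and SOX10) specifies neural crest derivatives and glia, and SOX9 also drives cartilage and testis development. SOX15 is the sole mammalian gene of group G and in mouse embryonic stem cells can bind sites it shares with Sox2.

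The likeness of the members is shown by 90 bases of coding sequence within the HMG box, taken from GENCODE v29 transcripts (GRCh38). These 7 genes are shown because the comparison turns on how close relatives differed in response. Each is written 5′ to 3′, with capitals at bases that differ from SOX9.
SOX9: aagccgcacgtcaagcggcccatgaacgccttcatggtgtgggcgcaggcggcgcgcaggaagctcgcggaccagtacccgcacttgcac
SOX10: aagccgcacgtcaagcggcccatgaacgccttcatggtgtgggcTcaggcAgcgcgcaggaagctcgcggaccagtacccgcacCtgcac
SOX8: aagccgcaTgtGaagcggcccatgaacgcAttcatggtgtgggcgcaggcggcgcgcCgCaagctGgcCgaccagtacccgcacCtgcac
SOX11: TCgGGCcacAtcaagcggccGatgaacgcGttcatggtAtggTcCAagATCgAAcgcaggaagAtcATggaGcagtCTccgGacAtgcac
SOX4: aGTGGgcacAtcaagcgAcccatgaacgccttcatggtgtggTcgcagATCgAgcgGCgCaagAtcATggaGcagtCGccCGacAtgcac
SOX12: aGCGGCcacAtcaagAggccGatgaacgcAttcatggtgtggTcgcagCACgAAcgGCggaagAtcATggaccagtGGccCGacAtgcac
SOX21: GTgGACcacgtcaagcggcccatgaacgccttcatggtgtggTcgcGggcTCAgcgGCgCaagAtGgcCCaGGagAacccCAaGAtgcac
In this window SOX10 was identical to SOX9 at 87 of 90 bases and SOX8 at 82, whereas SOX4 matched at 67, SOX21 at 66, and SOX11 and SOX12 at 65 each. The longest identical run between coding sequences of any 2 members was 60 bases, between SOX1 and SOX21, followed by 45 bases between SOX9 and SOX10. With read length and the handling of reads that match several genes not given in the sources used here, a small exchange of reads within such runs cannot be seen.

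Of the 10 members, 9 had enough reads to be tested. SOX8, SOX9 and SOX11 rose after ASO-L1 and SOX21 fell, while SOX3, SOX4, SOX10, SOX12 and SOX15 did not pass an adjusted p of 0.05 by edgeR's quasi-likelihood test. Over all 16873 tested genes, 18.0% were called higher and 15.7% lower, 33.7% in all, so 4 calls among 9 members are not set apart from the background. The ranges of ASO-L1 and SO-L1 were fully separate for 7 of the 9 members, against 50.9% of all tested genes. The median log2 fold change of the 9 was 0.46, against -0.01 over all tested genes, where the median absolute value was 0.27. The members were chosen with earlier results of these data known, so their median is not that of an unselected set. With the replicate number as a block, which called 45.7% of all genes, SOX3 and SOX15 were also called higher and SOX10 lower. With SO-L1 replicate 1 dropped only SOX11 was called higher, with ASO-L1 replicate 3 dropped 5 members were, and with replicate 1 dropped from both groups none was.

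**Figure D1:**
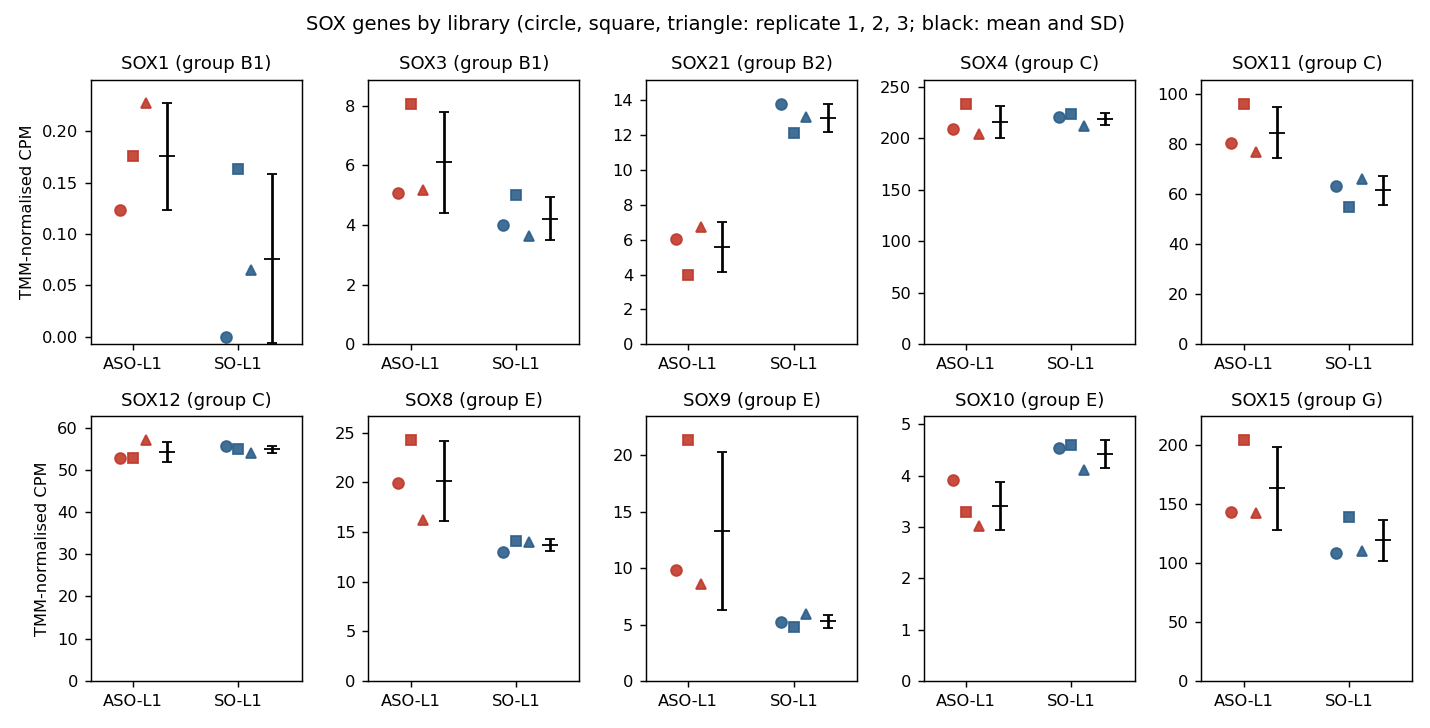
TMM-normalised read counts scaled to library size (CPM) of the 10 members, 1 panel per gene on its own linear axis, with symbols for replicates and black bars for mean and SD of 3 libraries. The 3 SOX21 values are lower in ASO-L1 than in SO-L1, those of SOX8, SOX9 and SOX11 are higher, and SOX4 and SOX12 overlap.

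The levels of the members spanned orders of magnitude. Divided by the merged exon length of GENCODE v29, which may not be the annotation behind the counts, SOX15 was the highest in both groups, at 106 ± 22.8 CPM per kb in ASO-L1 and 77.2 ± 11.3 in SO-L1 (SD, n = 3 each). SOX4 followed at 36.9 ± 2.64 and 37.4 ± 1.03 CPM per kb, then SOX12 at 11.7 ± 0.509 and 11.8 ± 0.191, and SOX11 at 9.71 ± 1.17 and 7.06 ± 0.663, in ASO-L1 and SO-L1 in each case. For scale, SOX2, a core factor outside the list, stood at 89.5 ± 8.83 CPM per kb in ASO-L1 and 97.7 ± 10.3 in SO-L1. SOX21 ranked 8 of 10 in ASO-L1 (2.01 ± 0.513 CPM per kb) and 5 of 10 in SO-L1 (4.67 ± 0.295). In ASO-L1 it lay below SOX8 (4.54 ± 0.908), SOX9 (3.37 ± 1.78) and SOX3 (2.86 ± 0.799), with SDs that overlap for SOX9 and SOX3. In SO-L1 it lay above SOX8 (3.09 ± 0.130), SOX3 (1.97 ± 0.335) and SOX9 (1.35 ± 0.147) by more than their SDs. SOX10 (0.919 ± 0.125 in ASO-L1, 1.19 ± 0.0721 in SO-L1) and SOX1 (0.0618 ± 0.0182 and 0.0267 ± 0.0288) were the lowest in either group.

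Among the group B genes, SOX21 had 147, 91 and 207 reads in ASO-L1 replicates 1 to 3, against 430, 298 and 400 reads in SO-L1. In TMM-normalised CPM these were 6.07, 3.99 and 6.72 in ASO-L1 and 13.8, 12.1 and 13.1 in SO-L1. The highest ASO-L1 library thus lay well under the lowest SO-L1 library. The log2 fold change was -1.21 ± 0.17 (SE, adjusted p = 0.00183 by edgeR with Benjamini-Hochberg adjustment), with a 95% interval from -1.58 to -0.83. SOX21 was called in each of the 15 alternatives tried, at -1.37 to -1.02, with adjusted p-values from 1.16e-15 to 0.0443. The authors' deposited table gives it a log2 fold change of -1.24 and an adjusted p of 0.00292.

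SOX21 lies on the reverse strand of chromosome 13 as a gene of 1 exon (chr13:94709622-94712399 in GENCODE v29, GRCh38), and the noncoding gene SOX21-AS1 runs away from it on the other strand. Their start sites in RefSeq (GRCh38.p14) are 171 bases apart, and their exons share no base in GENCODE v29. The SOX21 promoter window of RefSeq, chr13:94712496-94712795 on the reverse strand, is shown because in RefSeq both transcripts start inside it and both fell. The GENCODE v29 start of SOX21, at 94712399, lies outside this window. Capitals mark the 170 bases between the 2 RefSeq start sites.
SOX21 promoter: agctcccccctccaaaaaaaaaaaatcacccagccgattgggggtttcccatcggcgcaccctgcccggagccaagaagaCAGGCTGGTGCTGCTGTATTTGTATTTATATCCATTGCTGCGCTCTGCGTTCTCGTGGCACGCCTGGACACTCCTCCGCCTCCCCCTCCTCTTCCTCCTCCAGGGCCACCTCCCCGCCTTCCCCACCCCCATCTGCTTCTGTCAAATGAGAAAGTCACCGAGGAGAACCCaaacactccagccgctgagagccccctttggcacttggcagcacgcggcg
This window held 15 CG dinucleotides, against a median of 14 over 35116 windows of 300 bases in the same table. On either strand it held no ACAATG and no ACAAAG, 2 forms of the SOX consensus site, which are present in 10.8% and 16.1% of all windows. SOX21-AS1 had 45, 35 and 69 reads in ASO-L1 and 90, 111 and 131 in SO-L1. Its groups did not overlap either, and its log2 fold change was -1.03 ± 0.22 (adjusted p = 0.00735 by edgeR), called in every alternative. The ratio of SOX21 to SOX21-AS1 reads was 3.27, 2.6 and 3.0 in ASO-L1 and 4.78, 2.68 and 3.05 in SO-L1. These ratios overlapped, with a two-sided exact permutation p of 0.6 (adjusted 0.686 over 8 ratios). With 3 against 3 libraries the smallest p such a test can give is 0.1.

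In mouse early embryos Sox21 is known to hold down Cdx2, a trophectoderm factor. CDX2 had 27, 75 and 31 reads in ASO-L1 and 16, 9 and 7 in SO-L1. In CPM it stood at 1.11, 3.29 and 1.01 in ASO-L1 and at 0.512, 0.366 and 0.228 in SO-L1 (log2 fold change 2.24 ± 0.54, adjusted p = 0.0131 by edgeR). ASO-L1 replicate 2 was far above the other ASO-L1 libraries. CDX2 had the smallest p of the trophectoderm markers, and its fold change was not computed under the alternatives. The relation between SOX21 and CDX2 was not tested.

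SOX3, which in the embryo acts in neural progenitors and the pituitary, had 5.08, 8.07 and 5.16 CPM in ASO-L1 and 4.00, 5.01 and 3.62 CPM in SO-L1. The groups were close but did not overlap, ASO-L1 replicate 2 standing apart. The log2 fold change of 0.53 ± 0.21 did not pass (adjusted p = 0.0692 by edgeR), and without ASO-L1 replicate 2 it was 0.29; with the replicate block it did pass (0.00492), as it did with no filter on low counts (0.0144), with ASO-L1 replicate 3 dropped (0.0490) and with replicate 2 dropped from both groups (0.0266). In the authors' deposited table its adjusted p was 0.118. The SOX3 to SOX21 read ratio was 0.837, 2.02 and 0.768 in ASO-L1 and 0.291, 0.413 and 0.278 in SO-L1, a 3.39-fold difference with no overlap (two-sided exact permutation p = 0.1, adjusted 0.133). With SOX3 higher and SOX21 lower in every ASO-L1 library, this ratio could not overlap. Its p adds nothing to the values of the single genes. SOX1, an early marker of neural plate cells, had only 3, 4 and 7 reads in ASO-L1 and 0, 4 and 2 in SO-L1. It was too low for the filter, and with no filter edgeR gave an adjusted p of 0.385, so no difference was detectable at this depth.

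**Figure D2:**
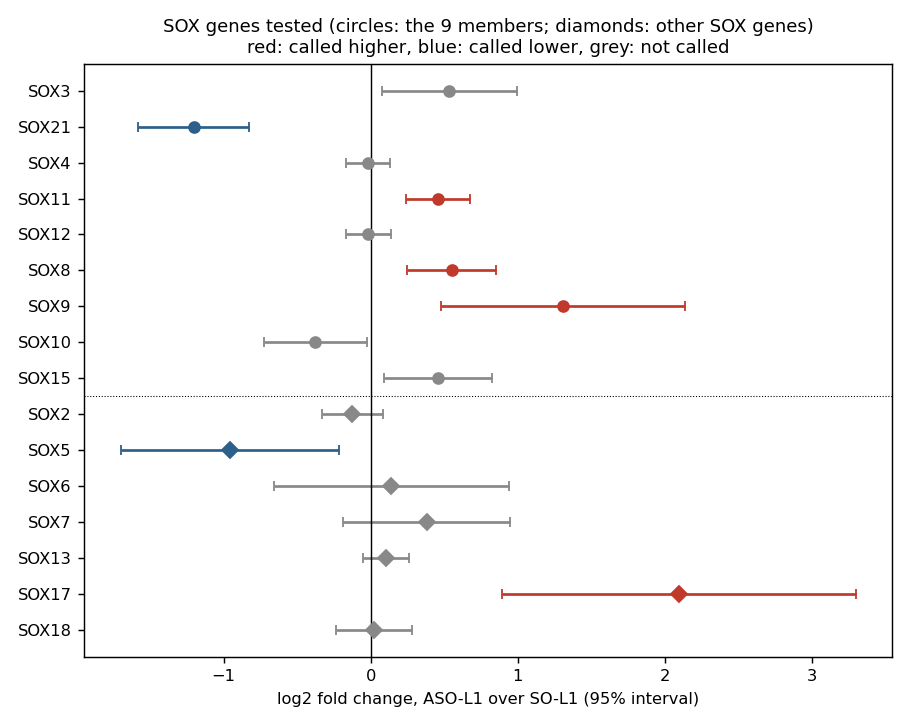
Log2 fold change of ASO-L1 over SO-L1 with 95% intervals for the 9 tested members (circles) and 7 other tested SOX genes (diamonds). SOX21 is the lowest of these at -1.21, and the intervals of SOX4 and SOX12 are narrow and span 0.

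In group C SOX11 rose, while SOX4 and SOX12 did not pass. SOX11, which is active in immature neurons, had 80.7, 96.3 and 76.9 CPM in ASO-L1 and 63.5, 55.1 and 66.2 CPM in SO-L1. All ASO-L1 libraries were above all SO-L1 libraries. This gave a log2 fold change of 0.46 ± 0.10 (adjusted p = 0.00732 by edgeR), or 1.37-fold, and the call ended with replicate 1 dropped from both groups (0.0662). Without replicate 2 of both groups the value was 0.28, still called.

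SOX4, a factor of progenitor survival and of several epithelia, had 210, 234 and 205 CPM in ASO-L1 and 221, 223 and 212 CPM in SO-L1. SOX12 had 52.8, 52.9 and 56.9 CPM in ASO-L1 and 55.7, 54.9 and 53.9 CPM in SO-L1. Both genes had overlapping groups and log2 fold changes of -0.02 ± 0.07. Their 95% intervals ran from 0.892-fold to 1.09-fold for SOX4 and from 0.890-fold to 1.099-fold for SOX12, which leaves out a change of the size of SOX11. Adjusted p-values were 0.854 for SOX4 and 0.872 for SOX12 by edgeR, and neither was called in any of the 15 alternatives.

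Read ratios within a library do not depend on normalisation, and 8 such ratios, chosen after the values were seen, were compared. SOX11 to SOX4 was 0.385, 0.412 and 0.376 in ASO-L1 and 0.288, 0.247 and 0.313 in SO-L1, a 1.39-fold difference. SOX11 to SOX12 was 1.53, 1.82 and 1.35 in ASO-L1 and 1.14, 1.0 and 1.23 in SO-L1, also 1.39-fold. Neither ratio overlapped between groups, and each had the smallest possible two-sided exact permutation p of 0.1 (adjusted 0.133). Given the ranges of SOX11, SOX4 and SOX12 above, neither ratio could overlap. Their p-values add nothing to the values of the single genes. SOX12 to SOX4 was 0.252, 0.226 and 0.278 in ASO-L1 and 0.252, 0.246 and 0.255 in SO-L1, so the groups overlapped (exact permutation p = 1.0).

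**Figure D3:**
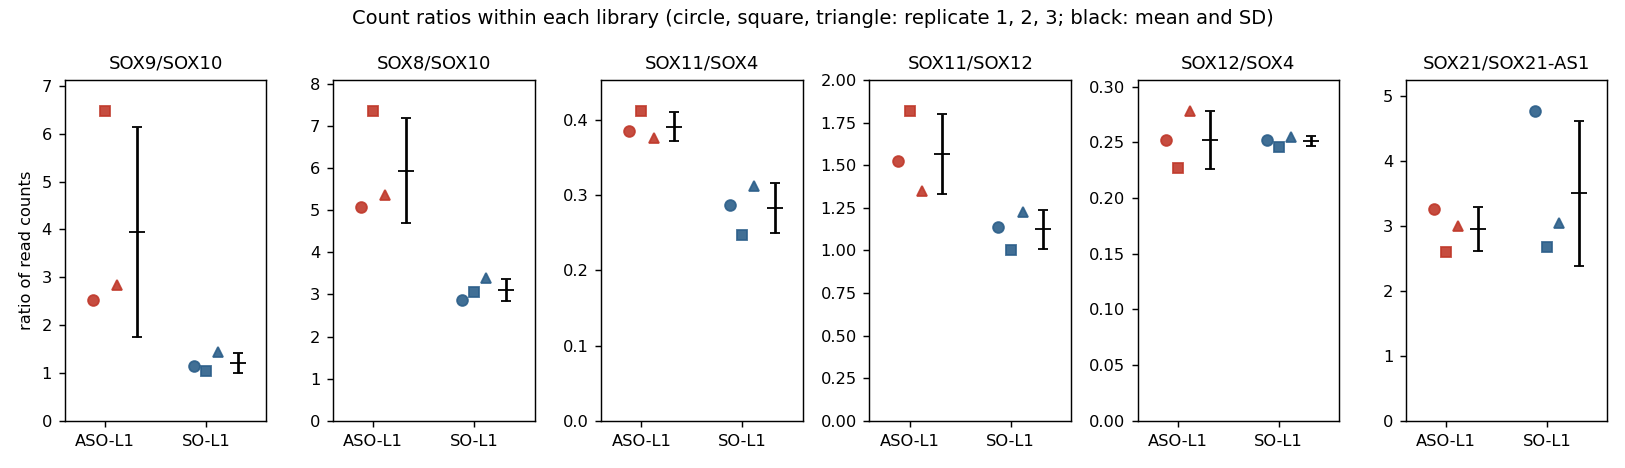
Ratios of read counts within each library, 1 panel per pair on its own linear axis, with symbols for replicates and black bars for mean and SD of 3 libraries. SOX9/SOX10, SOX8/SOX10, SOX11/SOX4 and SOX11/SOX12 are higher in each ASO-L1 library than in any SO-L1 library, and the other 2 ratios overlap.

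In group E SOX8 and SOX9 rose, while SOX10 did not pass. SOX9, the factor of cartilage and Sertoli cells, had 239, 486 and 265 reads in ASO-L1 and 162, 118 and 182 in SO-L1, or 9.86, 21.3 and 8.60 CPM against 5.18, 4.80 and 5.94 CPM. Every ASO-L1 library was above every SO-L1 library, and ASO-L1 replicate 2 was far above the other two. The log2 fold change was 1.31 ± 0.35 (adjusted p = 0.0278 by edgeR), or 2.47-fold, and without ASO-L1 replicate 2 it was 0.79, still called (0.00111). Dropping SO-L1 replicate 1 (0.0540), 2 (0.0579) or 3 (0.0654), dropping replicate 1 from both groups (0.0616) or using no filter (0.0843) ended the call.

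SOX8, which acts beside SOX9 in the testis and beside SOX10 in glia, had 19.9, 24.2 and 16.2 CPM in ASO-L1 and 13.03, 14.1 and 14.0 CPM in SO-L1. The groups did not overlap. This was a log2 fold change of 0.55 ± 0.14 (adjusted p = 0.0129 by edgeR), and the call was lost when SO-L1 replicate 1 (0.0674) or the first replicate in both arms (0.127) was dropped. Without replicate 2 of both groups it was 0.41 and still called.

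SOX10, the factor of neural crest, Schwann cells and melanocytes, had 3.92, 3.29 and 3.02 CPM in ASO-L1 and 4.54, 4.60 and 4.11 CPM in SO-L1. All ASO-L1 libraries were under all SO-L1 libraries by a small margin. The log2 fold change of -0.38 ± 0.16 did not pass (adjusted p = 0.0899 by edgeR) except with the replicate block (0.0476). In GENCODE v29 SOX10 shares 89 exonic bases, 2.40% of its exons, with POLR2F on the other strand, with the strand setting of the counts not given in the sources used here. POLR2F itself was at 75.8 ± 3.72 CPM in ASO-L1 and 67.5 ± 7.31 in SO-L1 (log2 fold change 0.17 ± 0.09, adjusted p = 0.159 by edgeR).

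The SOX9 to SOX10 read ratio was 2.52, 6.48 and 2.85 in ASO-L1 and 1.14, 1.04 and 1.44 in SO-L1, a 3.0-fold difference. The SOX8 to SOX10 ratio was 5.08, 7.36 and 5.35 in ASO-L1 and 2.87, 3.06 and 3.40 in SO-L1, a 1.89-fold difference. SOX9 to SOX8 was 0.495, 0.880 and 0.532 in ASO-L1 and 0.398, 0.341 and 0.425 in SO-L1, 1.59-fold. None of these 3 ratios overlapped between groups, each with a two-sided exact permutation p of 0.1 (adjusted 0.133). Separation was fixed in advance for SOX9 to SOX10 and for SOX8 to SOX10. In every ASO-L1 library SOX10 was already lower, and SOX8 and SOX9 higher, than in any SO-L1 library. The p-values of those ratios add nothing to the values of the single genes.

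SOX15, of group G, had 143, 204 and 142 CPM in ASO-L1 and 108, 139 and 110 CPM in SO-L1. The lowest ASO-L1 library was only just above SO-L1 replicate 2, and replicate 2 was the highest in each group. The log2 fold change of 0.46 ± 0.16 did not pass by edgeR (adjusted p = 0.0599), while DESeq2 (0.00846), limma-voom (0.0367) and the replicate block (2.04e-05) called it. It was not called with SO-L1 replicate 1 (0.140) or 3 (0.163) dropped, and with ASO-L1 replicate 2 dropped the log2 fold change was 0.27 (0.0856). In the authors' batch-corrected log2 table SOX15 ran from 7.29 to 7.37 in ASO-L1 and from 6.83 to 6.94 in SO-L1. The authors' deposited table gives it an adjusted p of 0.0517.

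**Figure D4:**
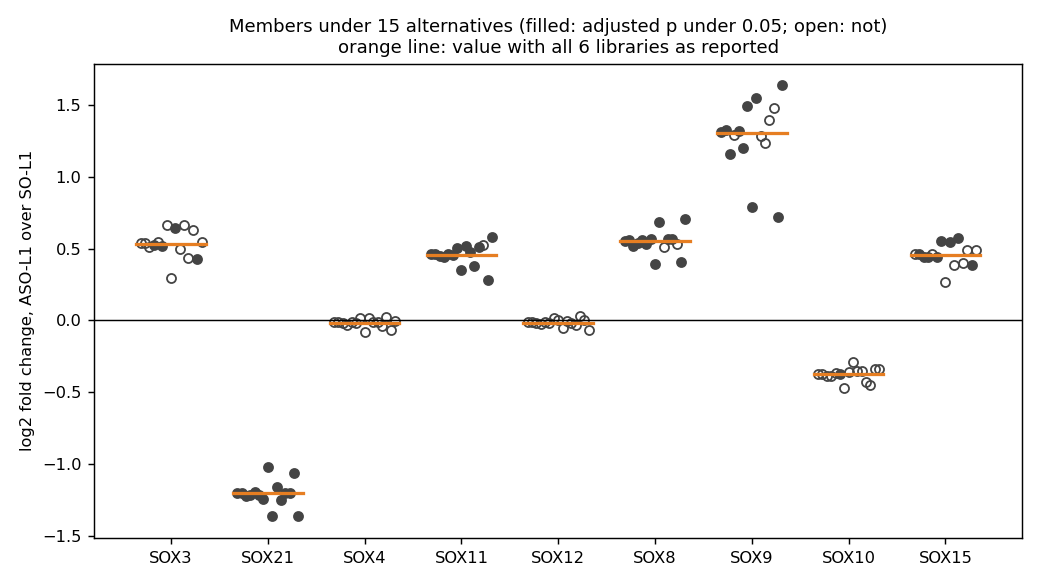
Log2 fold changes of the 9 tested members under each of 15 alternatives (filled where the adjusted p was under 0.05), with the reported value as an orange line. SOX21 is filled throughout, SOX4 and SOX12 stay near 0 and open, and SOX9 ranges from 0.72 to 1.64.

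Of 9 other SOX genes in the table, 7 were tested, with 1 higher and 1 lower (28.6%, against 33.7% of all tested genes). SOX17, an endoderm and germ cell factor, had 15, 29 and 14 reads in ASO-L1 and 3, 7 and 5 in SO-L1. Its log2 fold change was 2.10 ± 0.54 (adjusted p = 0.0142 by edgeR). This call ended when SO-L1 replicate 1 (0.0737) or 3 (0.0579), or replicate 1 of both groups (0.101), was dropped. Where a CPM over 1 was asked of 3 libraries, SOX17 was too low to be tested. SOX5, a partner of SOX9 in cartilage, had 13, 6 and 15 reads in ASO-L1 and 24, 23 and 26 in SO-L1 (-0.96 ± 0.33, 0.0470), and its call was lost whichever library was left out. SOX2 (-0.13 ± 0.09, 0.318), SOX13 (0.10 ± 0.07, 0.290), SOX18 (0.02 ± 0.12, 0.898), SOX7 (0.38 ± 0.26, 0.270) and SOX6 (0.14 ± 0.36, 0.789) did not pass.

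Genes that SOX factors act with were read from 4 further lists. Among 16 tested cartilage matrix genes and SOX9 targets, 4 were called higher and 2 lower (37.5% of the list, against 33.7% of all tested genes), with a median of -0.01. COL2A1, the collagen of cartilage and a direct SOX9 target, was at 7.41 ± 1.01 CPM in ASO-L1 and 2.06 ± 0.210 in SO-L1 (log2 fold change 1.84 ± 0.16, adjusted p = 8.00e-04 by edgeR). ACAN, the aggrecan core protein, rose by 0.75 ± 0.13 (0.00337), and FGFR3, a growth factor receptor of growth plate cartilage, fell by 0.71 (0.00206). The other 2 that rose were COL11A2 (1.32 ± 0.25) and AMH (1.83 ± 0.32), the hormone that SOX9 switches on in Sertoli cells, and the other that fell was HAPLN1 (-0.51 ± 0.16). These last 3 were named after their values were seen. With replicate 1 dropped from both groups, ACAN (0.0609) and COL11A2 (0.0551) were not called, and HAPLN1 lost its call when any 1 of 4 libraries was dropped (0.0615 to 0.109).

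Of 19 tested genes of neural crest, glia and melanocytes, the settings of group E, 6 were called higher and 3 lower (47.4%, against 33.7% of all tested genes), with a median of 0.25. SNAI2, a factor of crest cell migration, was at 2.99 ± 1.47 CPM in ASO-L1 and 0.662 ± 0.308 in SO-L1 (2.19 ± 0.41, adjusted p = 0.00454 by edgeR). ZIC1, of the neural plate border, rose by 3.12 ± 0.63 at a low level (0.00508), and the receptor gene RET fell by 0.49 (0.00358). Without replicate 1 of both groups ZIC1 (0.0616) and RET (0.0712) were not called. The melanocyte genes of this list, named after their values were seen, did not move together. MITF, the melanocyte regulator that SOX10 activates, was at 2.95 ± 0.361 CPM in ASO-L1 and 4.40 ± 0.777 in SO-L1 and fell by 0.57 (adjusted p = 0.0341 by edgeR). The pigment granule gene PMEL was at 104 ± 2.75 CPM in ASO-L1 and 92.1 ± 9.88 in SO-L1 and did not pass (0.125). TYR had no read in any library, and DCT had 0 reads in ASO-L1 and 1 read in SO-L1.

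Of 20 tested neural progenitor genes, the setting of group B1, 7 were called higher and 1 lower (40%, against 33.7% of all tested genes), with a median of 0.15. PAX6, of eye and forebrain, was at 3.78 ± 1.05 CPM in ASO-L1 and 1.13 ± 0.157 in SO-L1 (1.74 ± 0.24, adjusted p = 0.00183 by edgeR). The RNA-binding protein gene MSI1 was at 31.9 ± 4.89 CPM in ASO-L1 and 18.6 ± 0.852 in SO-L1 (0.77 ± 0.11, 0.00195). NES, the most abundant of this list, was at 755 ± 47.9 CPM in ASO-L1 and 752 ± 67.2 in SO-L1 and did not pass (0.01 ± 0.08); it was named after its values were seen.

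The list for neuronal differentiation, the setting of group C, also held TEAD2, a target of Sox4 and Sox11 in mouse. Of the 14 tested genes on this list, 1 was called higher and 5 lower (42.9%, against 33.7% of all tested genes). The median of the list was -0.10. ELAVL3, an RNA-binding protein of neurons, was at 17.5 ± 2.15 CPM in ASO-L1 and 28.0 ± 2.57 in SO-L1 (-0.67 ± 0.11, adjusted p = 0.00277 by edgeR). DCX, a microtubule protein of migrating neurons, fell by 0.72 (0.0118), and TEAD2 fell by 0.42 (0.0103). DCX was not called with SO-L1 replicate 3 dropped (0.0527). When replicate 1 of both groups was left out ELAVL3 (0.0529), DCX (0.0560) and TEAD2 (0.0945) were not called. Named after their values were seen, the others called lower were GAP43 and ELAVL4 and the gene called higher was POU4F1. Each of these last 3 calls was lost without at least 1 single library.

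**Figure D5:**
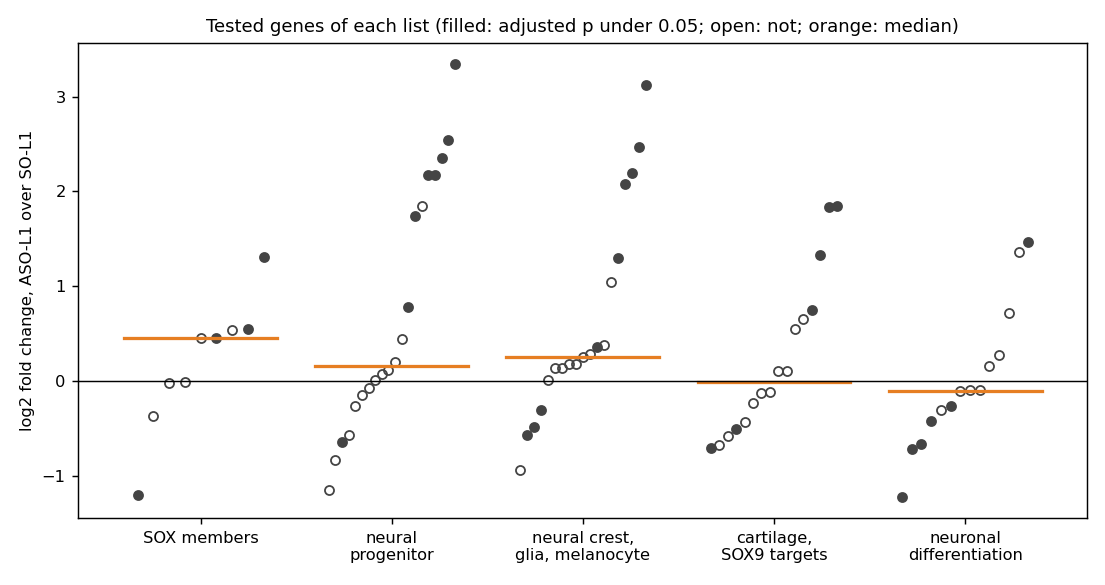
Log2 fold changes of the tested genes of the SOX members and of 4 lists (filled where the adjusted p was under 0.05), with the median as an orange line. Each list has called genes on either side of 0, and the medians run from -0.10 for neuronal differentiation to 0.46 for the SOX members.

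The libraries held 23330875 to 31164287 counts, and the 10 SOX genes took 0.0483% to 0.0633% of them. ASO-L1 replicate 2 stood apart on the first principal component, at 58.9 against 18.9 and 22.3 in the other ASO-L1 libraries and -40.5 to -21.3 in SO-L1. For 6 of the 7 members whose groups did not overlap, it was also the ASO-L1 library farthest from the SO-L1 mean, SOX10 being the exception. Core pluripotency genes were abundant, with SOX2 at 225 ± 22.2 CPM in ASO-L1 and 246 ± 26.0 in SO-L1. Of 5 tested, PRDM14 was called lower (log2 fold change -0.39 ± 0.08, adjusted p = 0.00672 by edgeR) and 4 did not pass (20% called). Of 8 tested naive markers KLF4 and TFCP2L1 were called higher and DPPA3, DNMT3L and SUSD2 lower (62.5% called, against 33.7% of all tested genes). KLF17, a defining naive marker, was low, at 0.395 ± 0.146 CPM in ASO-L1 and 0.743 ± 0.196 in SO-L1, with overlapping groups, and did not pass (adjusted p = 0.103 by edgeR). Primed markers summed to 361 to 462 CPM in ASO-L1 and 165 to 215 CPM in SO-L1, with 4 of 5 called higher (80%, against 33.7% of all tested genes). Most of that sum was VIM, at 308 CPM in ASO-L1 and 130 CPM in SO-L1. Of 8 tested trophectoderm markers 3 were called higher and none lower (37.5%, near the 33.7% of all tested genes), and their sums overlapped, at 113 to 132 CPM in ASO-L1 and 112 to 115 in SO-L1. Of 9 tested mesenchyme markers 4 were called higher and 5 did not pass (44.4% called), with sums of 602 to 699 CPM in ASO-L1 and 513 to 585 in SO-L1. Of 8 endoderm markers 4 were called higher and 4 did not pass (50% called), with sums of 167 to 215 CPM in ASO-L1 and 123 to 133 in SO-L1. None of these markers was at 0 in every library, though ARGFX, DCN, VGLL1 and CGB5 averaged under 0.2 CPM in either group. Some called genes are counted in more than 1 list, so the counts are not separate. These include THY1 (primed and mesenchyme), TWIST1 (mesenchyme and neural crest), TFAP2A (trophectoderm and neural crest) and SOX17 (endoderm and other SOX genes). The part of these cell types and of ASO-L1 replicate 2 in the SOX results was not tested, other than by the values given without that library.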

How the data were processed

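The deposited counts are raw reads per gene in 6 libraries, with duplicates removed by the authors, per the table's title. The submitters' processing notes list featureCounts, Subread 1.5.0, TopHat2 2.0.13, Trim Galore 0.4.0 and hg19, with annotation and strand setting not given in the sources used here. The authors' comparison table gives a log2 fold change, p-values and a t and a log-odds score per gene, per the file headers, and a second deposited table gives batch-corrected log2 values; models and batches are not stated, and the scores were not used.

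Counts were fitted with edgeR 4.0.16 (filterByExpr, minimum count 10 and total 15; TMM; robust quasi-likelihood test; no block; Benjamini-Hochberg over 16873 genes; two-sided; calls under 0.05). Alternatives used DESeq2 1.42.0, limma 3.58.1, other filters and left-out libraries. Scripts were tested on simulated data. Deviations from group means correlated at 0.102, 0.377 and 0.211 between libraries of the same replicate number, 1 to 3. Numbers 1 and 3 when crossed correlated at 0.156 and 0.162, above the 0.102 of number 1. Libraries of number 2 correlated at -0.302 to -0.188 with numbers 1 and 3 of the other group. The number 2 libraries thus deviated alike in both groups, while the pairing of numbers 1 and 3 is not settled by the data. The replicate block was run only as an alternative. Members and lists were chosen with earlier results of these data known. Named were all members, the 3 genes of smallest p per list, and the 3 genes closest in pattern to SOX11 and SOX21; 2 of the genes so chosen are not reported here. Coordinates and sequences are GRCh38 and were not joined to hg19 positions.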

Additional observations from a re-analysis of the deposited data

How the results depend on the processing

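Of the members, SOX21 (lower) kept its call in all 15 alternatives, SOX11 in 14, SOX8 in 13 and SOX9 in 10, and no called value changed direction. SOX15 was called in 8 alternatives, SOX3 in 4 and SOX10 in 1, though not in the reported fit. With the replicate block, 5 members were called higher and 2 lower. Leaving out libraries gave 0 to 5 members higher and 1 lower throughout, and over all tested genes 1601 to 2903 higher and 1374 to 2456 lower with 1 library dropped. With the same replicate number dropped from both groups, 757 (replicate 1), 3726 (replicate 2) and 1611 (replicate 3) were higher and 426, 3471 and 1209 lower. It gave 0 to 2 calls among other SOX genes, 4 to 10 among neural progenitor genes, 2 to 9 among neural crest genes, 3 to 9 among cartilage genes and 0 to 7 among neuronal genes (2 to 6 with 1 library dropped). The other SOX genes had 1 call by DESeq2, 1 without a filter and 0 where a CPM over 1 was asked of 3 libraries, a setting at which neural progenitor genes had 5. Which part of these shifts comes from fewer libraries was not tested. SOX1, with at most 7 reads in a library, is limited by depth.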

Other observations

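The tested genes whose pattern over the 6 libraries was most like that of SOX21 were BST2, FUT2 and BBS2, at a mean absolute difference of 0.0517, 0.0622 and 0.0652 in centred log2 CPM, among 12375 candidates. BST2, which encodes the antiviral membrane protein tetherin, had 50.7, 34.7 and 55.3 CPM in ASO-L1 and 108, 93.1 and 102 CPM in SO-L1. Among the genes most like SOX11 were DDX24 (0.0389) and CBWD1 (0.0394), with log2 fold changes of 0.48 ± 0.09 and 0.45 ± 0.12. Patterns over 6 libraries in 2 groups are mainly the group difference.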
